A study of Homo sapiens with 4 samples.

Results

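Heterotrimeric G protein subunits were examined in K562 cells after silencing of the long non-coding RNA HMRHL. The members are the 7 genes GNA15, GNA14, GNAL, GNB3, GNB5, GNG7 and GNGT1. They were chosen by the authors' fold changes: they are the alpha, beta and gamma subunit genes found by symbol among the 742 symbols in the authors' deposited table, which lists protein-coding genes the authors selected as differentially expressed. Each member filled 1 row of that table. K562 is a human line grown from a chronic myelogenous leukaemia, and HMRHL is transcribed from within the gene PHKB. The HMRHL knockdown group (2 libraries) received an siRNA against HMRHL and the scramble group (2 libraries) received a scrambled control siRNA. Total RNA was taken from both groups 36 hours after transfection and made into stranded libraries. No label says whether libraries of the same group were grown as separate cultures.

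The table holds 1 fold change per gene, made by the authors from both groups, with no value per library, error, p-value or expression level. Replicate spread and sequencing depth could not be read from it, and no test of change was made. Presence in the table chose the members, so their values are given as a description. Values were read as log2 and as HMRHL knockdown over scramble; the table states neither, and the opposite reading of direction would turn every sign. The levels of K562 markers were not analysed here, PHKB was not in the table, and the knockdown of HMRHL could not be checked.

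A heterotrimeric G protein couples a receptor at the cell surface to enzymes and channels inside. The alpha subunit binds GTP when the receptor is activated and parts from the joined beta and gamma subunits. Alpha subunits of the Gs class stimulate adenylyl cyclase, those of the Gi class mostly inhibit it, and those of the Gq class activate phospholipase C beta. The beta-gamma pair acts on its own targets, among them potassium and calcium channels. GNA15 is best known from blood cells, where it accepts signals from many kinds of receptor.

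Of the 7 subunit genes, the authors' deposited table listed 4 as lower in the HMRHL knockdown (GNA15, GNG7, GNB3 and GNA14) and 3 as higher (GNAL, GNB5 and GNGT1). Each of the alpha, beta and gamma classes had members in both directions. Of all 742 symbols, 69.4% were listed as lower and 30.6% as higher; nothing is read from the members' split, since the table chose them. Values entered the authors' deposited table from -1.15 on the lower side and from 1.50 on the higher side. With a minimum of 1.50 in both directions, 339 symbols in place of 515 were lower, against the same 227 higher, which is 59.9% lower. The median absolute value in the authors' deposited table was 1.89 over the members and 1.82 over all symbols. The members thus spread over most of the range of the table on the lower side and sat in the middle of it on the higher side. At least 4-fold values were listed for 3 members (GNA15, GNG7 and GNGT1) and for 39.6% of all symbols in the authors' deposited table, when read as log2. Read as a signed linear fold change, GNA15 would be the only member past 4-fold, at 5.39-fold, followed by GNG7 at 3.67-fold, and the other 5 members would lie between 1.22-fold and 2.02-fold.

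**Figure D1:**
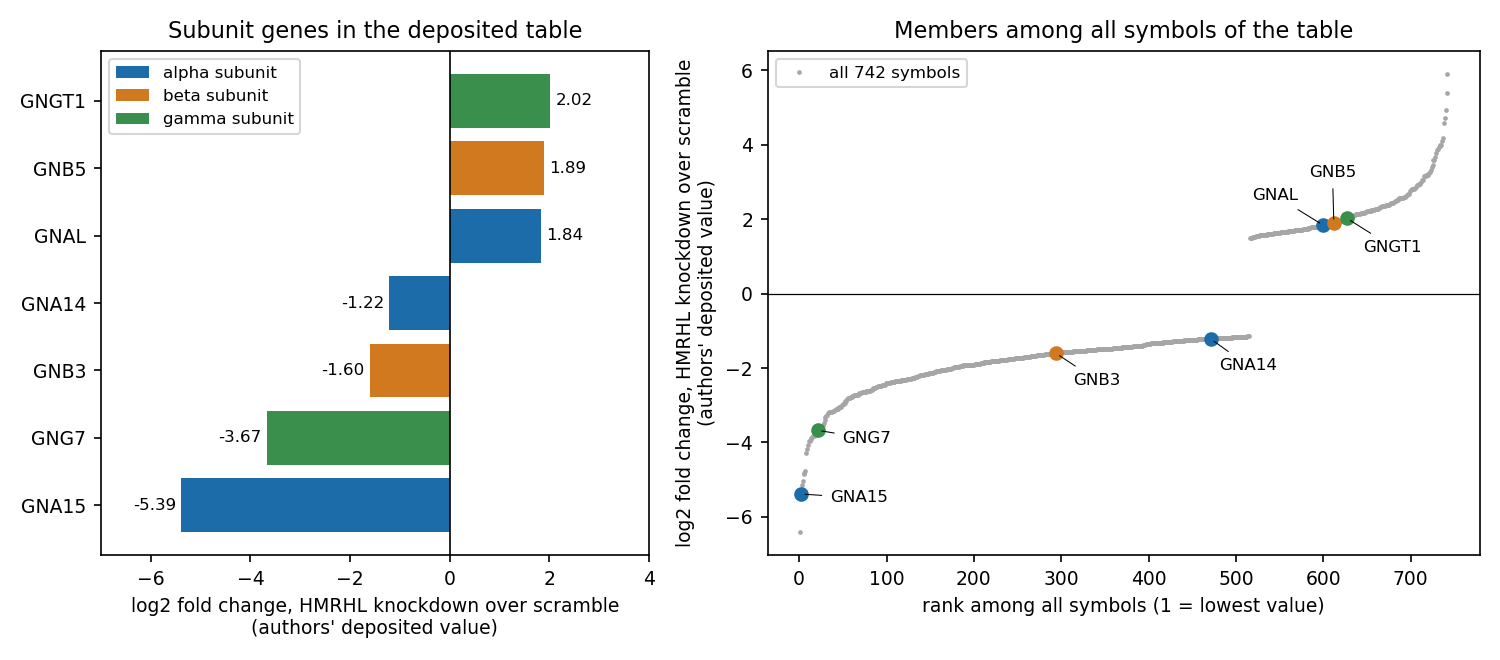
Left, the authors' log2 fold change (HMRHL knockdown over scramble) of each subunit gene, coloured by class; right, the same 7 genes among all 742 symbols ordered by value. GNA15 and GNG7 lie in the steep lower tail, whereas GNAL, GNB5 and GNGT1 lie close together between 1.84 and 2.02; no error bars can be given.

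Among the alpha subunits, GNA15 had the second lowest value of all 742 symbols, -5.39 in the authors' deposited table, which is 41.8-fold lower in the knockdown if read as log2. GNA14, like GNA15 a Gq class subunit that activates phospholipase C beta, stood at -1.22 in the same table, 2.32-fold lower. GNA14 ranked 471 of the 515 lower symbols and was thus close to the point of entry, since the listed lower value nearest to 0 was -1.15 in the authors' deposited table. GNAL, a Gs class subunit known from olfactory neurons and the striatum, stood at 1.84 in the authors' deposited table, 3.58-fold higher, and ranked 143 of the 227 higher symbols. The Gs and Gq classes therefore each had a listed member, with opposite signs. None of the subunits of the Gi class and neither GNA12 nor GNA13 was in the table.

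The end of the alpha subunit contacts the receptor, and its coding sequence shows how far the 3 listed alpha genes differ from their nearest relatives. The last 33 coding bases before the stop codon are shown, from GENCODE release 29 transcripts, with capitals marking bases that differ from the closest subunit gene. That gene is GNA11 for GNA15 and GNA14, and GNAS for GNAL, by coding identity.
GNA15: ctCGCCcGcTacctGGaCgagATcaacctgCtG
GNA14: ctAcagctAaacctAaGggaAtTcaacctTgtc
GNA11: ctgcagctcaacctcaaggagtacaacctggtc
GNAL: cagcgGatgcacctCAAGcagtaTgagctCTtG
GNAS: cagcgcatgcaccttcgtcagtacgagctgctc
In this stretch GNA15 differed from GNA11 at 13 bases, GNA14 from GNA11 at 7 and GNAL from GNAS at 9. Of these genes, GNA11 and GNAS were not in the authors' deposited table.

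Of the beta subunits, GNB3 was listed as lower and GNB5 as higher. GNB3, known as the beta subunit of cone transducin and present in other tissues as well, stood at -1.60 in the authors' deposited table, 3.04-fold lower, and ranked 294 of the 515 lower symbols. GNB5 stood at 1.89 in the authors' deposited table, 3.72-fold higher, and ranked 131 of the 227 higher symbols. GNB5 is the most divergent beta subunit and is known for pairing with RGS proteins of the RGS7 subfamily in place of a gamma subunit. None of those partners (RGS6, RGS7, RGS9 and RGS11) was in the table. GNB1, GNB2 and GNB4 were not in the table either.

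Of the gamma subunits, GNG7 was listed as lower and GNGT1 as higher. GNG7, known for its role beside GNAL in the striatum, stood at -3.67 in the authors' deposited table, 12.8-fold lower, and was the 21st lowest of all 742 symbols. GNGT1, the gamma subunit of rod transducin, stood at 2.02 in the authors' deposited table, 4.07-fold higher, and ranked 116 of the 227 higher symbols. Gamma subunits are anchored to the membrane by a lipid attached to a cysteine near their end, and the last codon of the gene bears on which lipid is added. The last 33 coding bases are shown with the final 4 codons in capitals, for both listed genes and for GNG11, the closest relative of GNGT1.
GNG7: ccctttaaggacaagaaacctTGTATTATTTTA
GNGT1: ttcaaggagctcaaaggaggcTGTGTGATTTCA
GNG11: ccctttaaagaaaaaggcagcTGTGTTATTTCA
GNGT1 and GNG11 share the final codon and GNG7 has another. GNGT1 and GNG11 are known to receive a farnesyl group, GNG7 a geranylgeranyl group. GNG11 was not in the authors' deposited table.

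Promoter windows, from 250 bases before to 50 bases after an annotated start, were at hand from RefSeq (GRCh38.p14) for 5 of the 7 members: GNA14, GNAL, GNB5, GNG7 and GNGT1. No window was matched for GNA15 and GNB3. The windows of the listed gamma genes are shown because these genes were listed in opposite directions and have very different starts. Capitals mark motifs found on either strand. Searched were the TATA box with the letters TATAAA, which places the start of transcription, and the GC box with the letters GGGCGG, which Sp factors bind. Searched as well were the motif of GATA factors, regulators of red cell genes, with the letters AGATAA, and the cAMP response element, which CREB factors bind, with the letters TGACGTCA.
GNG7, chr19:2702645-2702944, minus strand: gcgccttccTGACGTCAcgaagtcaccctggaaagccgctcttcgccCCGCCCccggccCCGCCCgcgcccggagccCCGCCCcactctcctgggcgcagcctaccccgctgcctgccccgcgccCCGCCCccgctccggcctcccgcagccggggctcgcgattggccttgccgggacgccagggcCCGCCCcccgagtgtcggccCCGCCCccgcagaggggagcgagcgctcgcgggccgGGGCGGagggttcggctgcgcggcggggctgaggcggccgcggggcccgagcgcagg
GNGT1, chr7:93906317-93906616, plus strand: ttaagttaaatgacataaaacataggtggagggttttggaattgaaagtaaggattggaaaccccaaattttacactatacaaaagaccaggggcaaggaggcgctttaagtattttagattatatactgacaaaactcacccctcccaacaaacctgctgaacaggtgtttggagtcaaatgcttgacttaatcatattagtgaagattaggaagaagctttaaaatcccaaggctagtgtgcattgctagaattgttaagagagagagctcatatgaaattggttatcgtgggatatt
The GNG7 window had a GC content of 82.0%, 7 GC boxes and 1 cAMP response element. The GNGT1 window had a GC content of 37.0% and none of the 4 motifs. Of 21021 windows of protein-coding genes, 57.0% held a GC box and 2.24% a cAMP response element. The TATA box occurred in 9.26% of them and the GATA motif in 7.87%. Of the 840 windows of symbols in the table, 49.9% held a GC box and 1.43% a cAMP response element, 9.64% a TATA box and 10.6% a GATA motif. Among subunit genes not listed, GNA11 and GNA13 each had a window with 6 GC boxes, and GNAO1 a window with 1 cAMP response element. The other unlisted subunit windows held fewer GC boxes or none, and no cAMP response element. None of the motifs found overlap one another, and they were chosen with these sequences in view.

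The other 3 members with windows had intermediate composition. GNA14 had a GC content of 63.0% in its single window, and none of the 4 motifs. GNAL has 5 windows with GC contents from 51.0% to 77.0%, of which 2 held GC boxes. GNB5 has 3 windows from 57.7% to 75.0%, of which 2 held GC boxes and the other 1 GATA motif. Over 14896 genes the median GC content was 62.7%, and over the 542 symbols of the table with a window it was 61.9%. GNG7 lay at percentile 98.7 of all these genes and GNGT1 at percentile 2.72. Among all symbols of the table with a window, the median was 60.7% for higher and 62.7% for lower genes, so the wide gap between the gamma genes was not a feature of the table's directions at large.

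**Figure D2:**
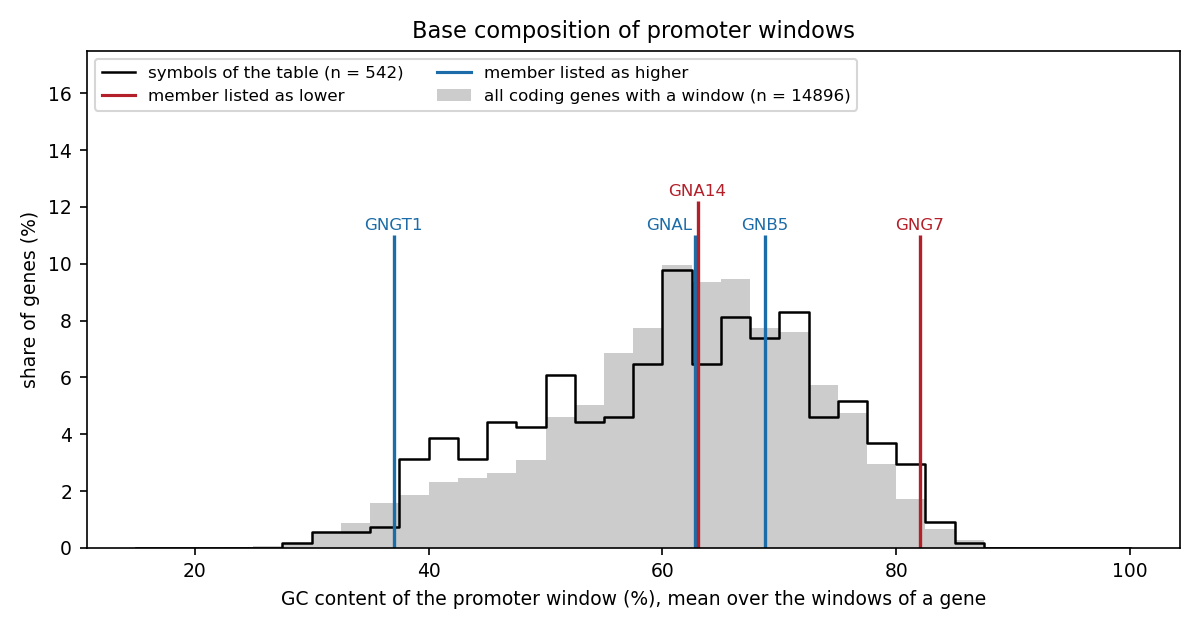
Share of genes (%) by GC content of the promoter window, for all 14896 coding genes with a window (grey) and the 542 symbols of the table (line); vertical lines mark the 5 members with a window, red where listed as lower and blue where listed as higher in the knockdown. GNGT1 (37.0%) and GNG7 (82.0%) lie at opposite ends, and GNAL and GNA14 lie together near the middle with opposite directions.

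Most of the family was not in the table. Of 33 annotated subunit genes on the family list, 7 (21.2%) were listed: 3 of 16 alpha, 2 of 5 beta and 2 of 12 gamma genes. Of all 19936 annotated protein-coding symbols, 3.71% were in the table; how many genes the authors tested is not known, and the members were picked for being listed, so nothing is read from the larger share. Among those not listed were broadly expressed subunits such as GNAS, GNAI2, GNAQ, GNB1 and GNG5, and subunits of specialised tissues such as GNAT1, GNAT2, GNAT3, GNAO1, GNGT2 and GNG13. Absence shows only that a gene was not selected; its level may still have differed.

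Coding sequences were compared codon by codon within each class. The closest relative of each member was outside the table in all 7 cases, as were most subunit genes, of which 7 of 33 (21.2%) were listed. GNGT1 and GNG11 had 74.9% identical bases, GNA14 and GNA11 73.9%, and GNAL and GNAS 73.8%. GNB3 and GNB2 had 77.1%, GNG7 and GNG12 71.6%, GNA15 and GNA11 67.9%, and GNB5 and GNB2 59.1%. That relative is by definition the gene of highest identity, so the other listed members of a class were necessarily less like each member. Among listed members, GNA15 and GNA14 had 60.2%, GNB3 and GNB5 58.0%, GNA15 and GNAL 52.3%, GNA14 and GNAL 51.4%, and GNG7 and GNGT1 50.5%. GNB5 was distant from every beta gene, and GNB3 was its second closest, after GNB2 at 59.1% and before GNB1 at 57.1% and GNB4 at 54.2%. GNA15 was about as far from GNA14 as from GNAQ, at 61.0%. GNA15 and GNA14, the listed pair with the most identical bases, were listed in the same direction.

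**Figure D3:**
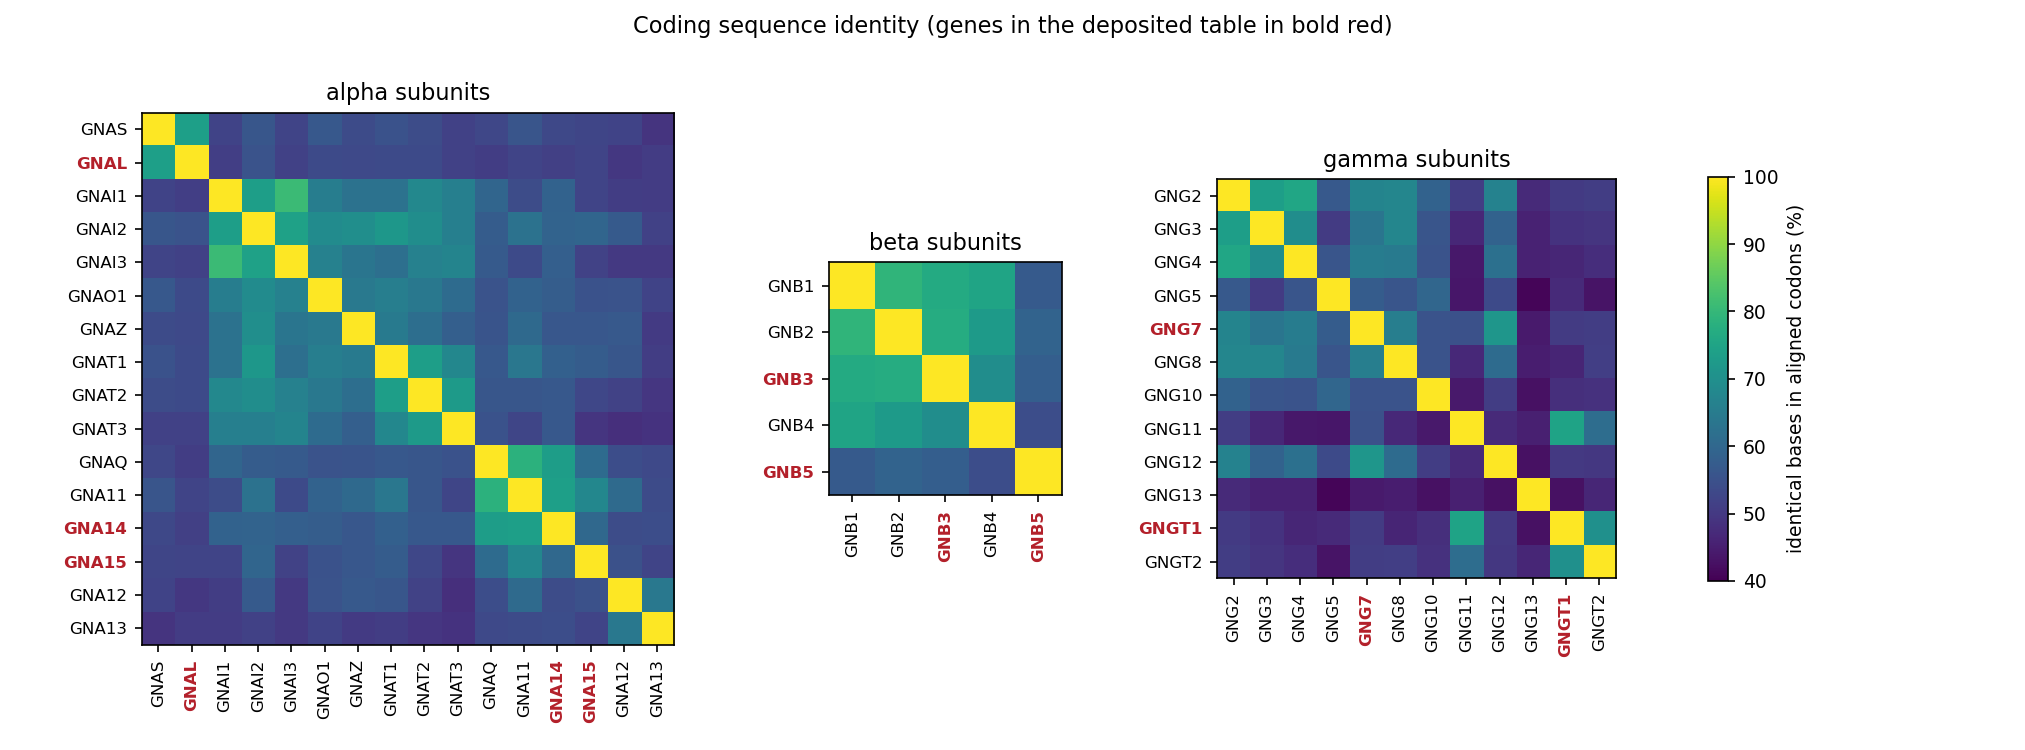
Identical bases in aligned codons (%) for each pair of alpha, beta and gamma subunit genes; genes in the deposited table are in bold red. The brightest off-diagonal cell of each row with a listed gene joins it to a gene that was not listed, such as GNGT1 with GNG11 (74.9%). Only 7 of the 33 subunit genes were listed. The row of GNB5 is dim throughout, between 54.2% and 59.1%.

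Several members have a subunit gene as a neighbour on the chromosome (GENCODE release 29, GRCh38). GNA15 lies on the plus strand of chromosome 19, from 3136193 to 3163769, and GNA11 ends 12.2 kb before its start. GNG7 lies on the same chromosome, from 2511219 to 2702709 on the minus strand, 433 kb from GNA15. The 2 lowest members, GNA15 at -5.39 and GNG7 at -3.67 in the authors' deposited table, are thus neighbours within 1 Mb, whereas GNA11 between them was not listed. Within that distance of GNA15, 2 of 60 other protein-coding genes were in the table (3.33%), and within that distance of GNG7, 3 of 65 (4.62%). Of all annotated protein-coding symbols, 3.71% were in the table. Each count includes the other member of the pair, so nothing is read from these shares. The gene of the table nearest to GNA15 was CELF5, an RNA-binding protein, 60.9 kb downstream and at 2.21 in the authors' deposited table, so the closest listed neighbour had the opposite sign. The other listed genes within 2000 kb of GNA15 or GNG7 were lower, as were 69.4% of all symbols. They were PLIN4 at -1.92, ADAMTSL5 at -1.70, CBARP at -1.54, FSTL3 at -1.30 and ANKRD24 at -1.25 in the authors' deposited table.

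GNA14 lies on the minus strand of chromosome 9, from 77423079 to 77648307, 67.8 kb from its relative GNAQ, which was not listed. No listed gene lay within 1 Mb, and the nearest was TRPM3, a cation channel, 5976 kb away at -2.10 in the authors' deposited table. GNAL lies on the plus strand of chromosome 18, from 11688956 to 11885685. Its nearest listed gene was LDLRAD4, an inhibitor of TGF-beta signalling, 1332 kb downstream and at 5.40 in the authors' deposited table. GNB5 lies on the minus strand of chromosome 15, from 52115105 to 52191369. Its nearest listed gene was HDC, the histidine decarboxylase that makes histamine, 1849 kb away at 2.27 in the authors' deposited table. These 3 members were the only listed genes within 1 Mb of their place, among 7, 14 and 15 other protein-coding genes. Of all annotated protein-coding symbols, 3.71% were listed.

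GNB3 lies on the plus strand of chromosome 12, from 6839954 to 6847393, and is the shortest of the members at 7.44 kb. LAG3, a checkpoint receptor of T cells, lay 61.5 kb upstream at -1.28 in the authors' deposited table. It was the single listed gene among 57 within 1 Mb (1.75%), against 3.71% of all annotated protein-coding symbols. GNGT1 lies on the plus strand of chromosome 7, from 93591573 to 93911265, and is the longest at 320 kb. The RefSeq start behind the promoter window lies inside this span, near its downstream end. GNG11 lies 10.4 kb downstream of the span and was not listed. CALCR, the calcitonin receptor and itself coupled to G proteins, lies 16.8 kb upstream of the span. CALCR is much farther from the RefSeq start, whose window begins at 93906317, so its closeness rests on the long GENCODE span. CALCR was listed at -1.70 and PEG10, an imprinted gene 745 kb downstream, at -1.77 in the authors' deposited table, both opposite to GNGT1 at 2.02. They were the 2 listed genes among 14 within 1 Mb of the span (14.3%), against 3.71% of all annotated protein-coding symbols. Farther downstream, at 1672 kb, PDK4 was listed at 1.55 in the authors' deposited table, with the same sign as GNGT1.

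**Figure D4:**
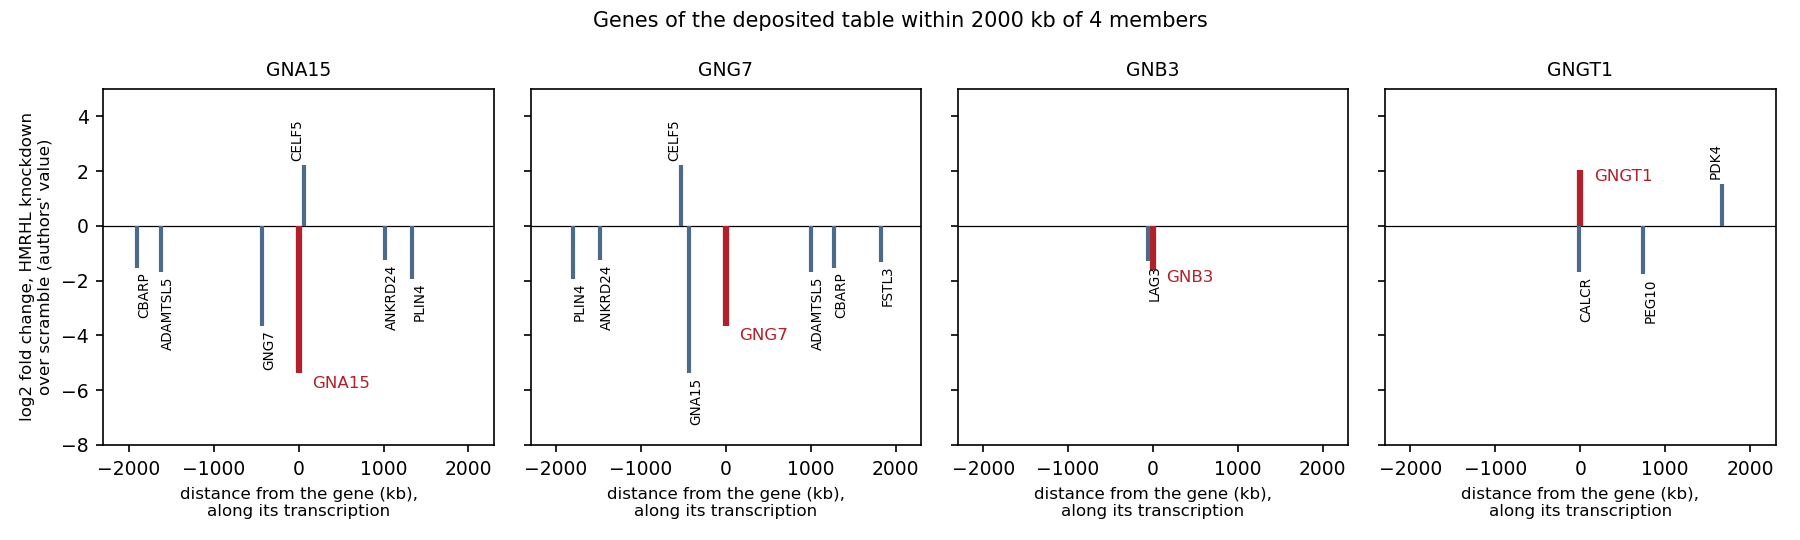
Listed genes within 2000 kb of GNA15, GNG7, GNB3 and GNGT1, placed by distance from the member along its direction of transcription (kb), with height as the authors' log2 fold change (HMRHL knockdown over scramble). GNA15 and GNG7 (red, each in its own panel) are both low and 433 kb apart. CELF5 beside GNA15 and CALCR beside the long GENCODE span of GNGT1 have the opposite sign to the member. Apart from CELF5, the listed genes in the panels of GNA15 and GNG7 are lower. PDK4 in the GNGT1 panel is higher, as GNGT1 is.

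Reads of genes that overlap on opposite strands can be told apart only where counting uses strand, and no source used here states whether it did. Of the 7 members, 5 have exons that overlap those of an opposite-strand gene, against 37.5% of the 739 located symbols of the table. GNA14 and GNG7 have no such overlap. GNAL shares 2261 exonic bases with MPPE1, GNB3 shares 549 with CDCA3, a cell division gene, and GNGT1 shares 44 with TFPI2, a protease inhibitor. GNA15 shares 160 bases with the antisense RNA AC005264.1, and GNB5 shares 874 and 356 bases with AC023906.3 and AC023906.4. As a share of all 50-base stretches of a member's transcripts, those found on the opposite strand of another gene came to 26.8% for GNAL, 12.5% for GNB3, 8.04% for GNB5, 4.25% for GNA15, 2.16% for GNGT1, 0.483% for GNG7 and 0% for GNA14. Such matches were counted in any gene, not only in overlapping ones, and GNG7 had some without an overlap. The 44 bases shared with TFPI2 are too few for a 50-base match, so those of GNGT1 came from other genes. MPPE1, CDCA3 and TFPI2 were not in the authors' deposited table. The part of these overlaps in the values was not tested.

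Sharing with other genes in the same sense was small for each member. It was 3.32% of the 50-base stretches for GNGT1, 1.43% for GNB5, 1.08% for GNAL and 0.307% for GNG7, and 0% for GNA15, GNA14 and GNB3. No member therefore reached the share of 50% set beforehand for a near-identical copy. Exact matches pooled over all transcripts of a gene can miss a copy with scattered differences or a copy of 1 transcript. Annotated transcripts numbered 12 for GNB5, 10 for GNAL, 9 for GNB3, 5 for GNGT1, 3 for GNA15 and 2 each for GNA14 and GNG7, each with a start of its own. The deposited table gives 1 value per gene, so which transcript of GNAL or GNB5 it describes cannot be told apart.

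Beyond the subunits, 7 lists of G protein signalling genes were read from the table. Without the members they held 585 annotated genes, of which 40 (6.84%) were listed, against 3.71% of all annotated protein-coding symbols. The lists were written with earlier results of these data known, and how many genes the authors tested is not known. Nothing is therefore read from the larger share. Of the 40 listed genes, 11 were listed as higher and 29 as lower in the knockdown. The share of 72.5% lower compares with 69.4% of all symbols. Their median value in the authors' deposited table was -1.50, against -1.44 over all symbols. The direction of the pathway genes was thus close to that of the table as a whole.

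Receptors upstream of the subunits were listed mostly as lower, as was the table. Of 397 receptors other than olfactory ones, 24 were listed (6.05%), against 3.71% of all annotated protein-coding symbols. Of the 24, 6 were listed as higher and 18 as lower. The values farthest from 0 in the authors' deposited table were those of GABBR2, a subunit of the GABA-B receptor, at -5.14, and CCR4, a chemokine receptor, at 3.77. VIPR1, a receptor for vasoactive intestinal peptide that couples to Gs, followed at -2.62 in the authors' deposited table. The adhesion receptors ADGRG3 and ADGRG5 stood at -2.39 and -2.22 there, and the blue cone opsin OPN1SW at -2.19 in the authors' deposited table. GABBR2 at -5.14 and GNA15 at -5.39 were both among the lowest values of that table.

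Of the regulators of the G protein cycle, 2 of 25 RGS proteins (8.0%) and 1 of 40 other modulators (2.5%) were listed, against 3.71% of all annotated protein-coding symbols. Of the RGS proteins, which speed the return of alpha subunits to the inactive state, RGS1 stood at 1.58 and RGS21 at -1.23 in the authors' deposited table. Among chaperones, receptor kinases, arrestins and other modulators, only GPRASP1, a receptor sorting protein, was listed, at -1.82 in the authors' deposited table. RIC8A and RIC8B, which assist the folding of alpha subunits, were not listed.

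Effectors were listed on both branches examined. On the cyclic AMP branch 6 of 52 genes were listed (11.5%), against 3.71% of all annotated protein-coding symbols. Of the 6, 1 was listed as higher and 5 as lower, where 69.4% of all symbols in the table were lower. The phosphodiesterases, which break down cyclic nucleotides, were at -2.47 (PDE7B), -1.78 (PDE1B), -1.58 (PDE1C) and -1.34 (PDE3B) in the authors' deposited table. The anchoring proteins AKAP3 and AKAP13 stood at -2.14 and 2.34 there, with opposite signs in the authors' deposited table. The adenylyl cyclases, the direct targets of GNAL, and the protein kinase A subunits were not listed.

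On the phospholipase C branch, which GNA15 and GNA14 enter through phospholipase C beta, 3 of 36 genes were listed (8.33%), 1 as higher and 2 as lower. Of all annotated protein-coding symbols, 3.71% were listed. PLCB4, a phospholipase C beta, stood at 2.49, the diacylglycerol kinase DGKI at -5.02 and the protein kinase C isoform PRKCE at -2.62 in the authors' deposited table. PLCB4 was thus listed in the direction opposite to both Gq class subunits. PLCB1, PLCB2 and PLCB3 were not listed.

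Phototransduction, in which GNB3, GNGT1 and GNB5 take part, had 8 of 41 genes in the table, 4 as higher and 4 as lower. Of these, 3 are the subunits chosen for being listed; without them 5 of 38 genes were in the table, 2 as higher and 3 as lower, against 3.71% of all annotated protein-coding symbols. The 5 were the lipid transporter ABCA4 at 2.53 and the disc membrane protein PRPH2 at 1.64, against OPN1SW at -2.19, the guanylate cyclase activator GUCA1B at -1.29 and ROM1, a partner of PRPH2, at -1.16 in the authors' deposited table. The rod gene GNGT1 and the cone gene GNB3 had opposite signs, and neither transducin alpha gene (GNAT1, GNAT2) was listed. Of 30 genes of olfactory and striatal signalling, 3 were listed: GNAL at 1.84, GNG7 at -3.67 and PDE1B at -1.78 in the authors' deposited table. Without the subunits this is 1 of 28 genes, against 3.71% of all annotated protein-coding symbols. GNAL and GNG7, which work in a single trimer in the striatum, thus had opposite signs, and the dopamine and adenosine receptors on that list were not in the table.

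**Figure D5:**
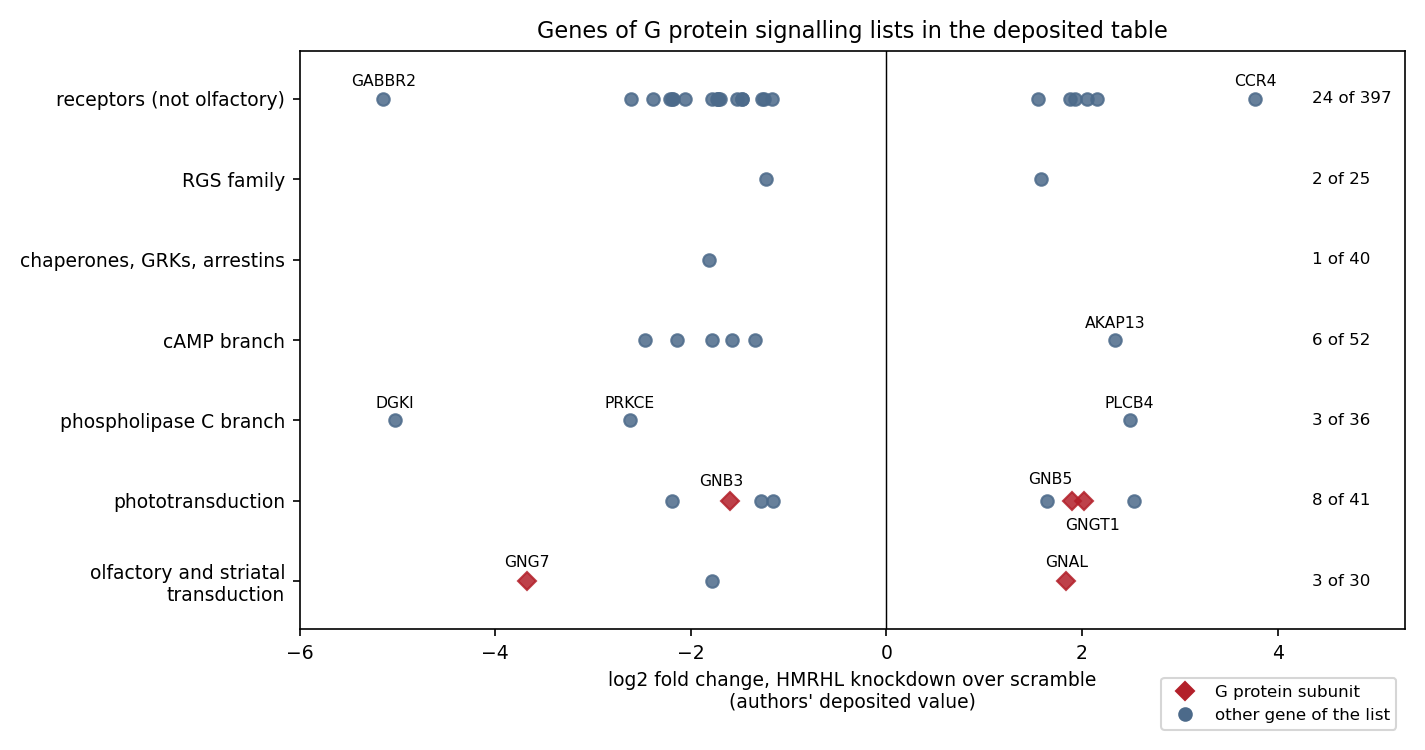
Authors' log2 fold change (HMRHL knockdown over scramble) of each listed gene in 7 G protein signalling lists, with the number listed out of those annotated at the right; red diamonds are the subunit genes. Each list with more than 1 listed gene has genes on both sides of 0, and DGKI (-5.02) and GABBR2 (-5.14) lie farthest to the left.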

How the data were processed

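Cuffdiff, Cufflinks, TopHat, Bowtie2, SAMtools 1.3.1 and Trim Galore 0.4.4 were used with builds GRCh38 and hg38, per the submitters' processing notes; settings and the selection threshold are not given there. The authors deposited 1 table of 831 rows (742 symbols, 89 identical repeats) with a fold change read as log2, since both signs occur and most values have 6 significant digits, as in Cuffdiff's log2 column. A signed linear scale cannot be told apart from this. Each symbol was counted once and linear folds are powers of 2 of the absolute value. Members and lists were chosen with earlier results of these data known. Named are all members and the listed genes of each list (of receptors the 6 farthest from 0). The nearest listed gene of each member and its closest relative are named too. Further genes not in the table, other listed neighbours such as PEG10, and overlap partners were named after the results were seen. The family list has 33 genes and does not hold GNG14, which was not in the table. A further list of effectors is not reported here.

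Spans, exons and transcripts are GENCODE release 29 (GRCh38, 1-based). Coding sequences, 1 consensus transcript per gene with the length nearest the class median, were aligned codon-wise (BLOSUM62, gap opening 11, extension 1), where protein identity had been planned. Stretches of 50 bases were matched between transcripts exactly. Promoter windows are RefSeq's. No differential test could be made without counts or values per library. Python 3.11.15, pandas 2.3.3, numpy 2.4.6, Biopython 1.88 and matplotlib 3.10.9 were used.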

Additional observations from a re-analysis of the deposited data

How the results depend on the processing

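At a minimum of 4-fold, 2 members remained listed as lower, against 4 of all members, 3 subunit genes remained in the table and the median absolute value of the members was 3.67, against 1.89. Leaving out the 5 members whose exons overlap a gene on the opposite strand left 2 subunit genes, GNA14 and GNG7, both listed as lower, with a median of 2.44. With the same minimum of 1.50 applied to higher and lower genes GNA14 dropped out, which left 3 higher and 3 lower members and a median of 1.96. A minimum removes the values nearest 0, so the medians of 3.67 and 1.96 had to exceed 1.89 and nothing is read from them. Counting every row, translating older symbols and leaving out members with a near-identical copy could change none of the members' values. Such a copy was defined as at least 50% of a member's 50-base stretches shared in the same sense. Each member filled 1 row, 0 symbols were translated and 0 members reached that share, so these settings test nothing. Of the 40 other signalling genes (29 lower), 17 remained at 4-fold, of which 11 were lower, and 31 at the equal minimum, of which 20 were lower; of all symbols 59.9% were lower under either minimum, against 69.4% as deposited. These alternatives for the signalling genes were added after seeing the data. Read as a signed linear fold change, GNA15 would be 5.39-fold lower and GNG7 3.67-fold lower, against 41.8-fold and 12.8-fold when read as log2. No paired analysis was possible because the table has no value per library. For the same reason leaving out replicates, other minimum levels and pseudocounts were not run, and the depth behind each value is unknown.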
